A study of Homo sapiens with 2 samples.

Results

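GATA2 binding was examined at 5 genes of epithelial adhesion and the epithelial cytoskeleton: KRT8, KRT18, CDH1, EPCAM and GRHL2. The members are all peaks of the deposited list whose midpoint lies within the gene body or 0.1 Mb to either side of it. KRT8 and KRT18 are adjacent and share a window, so there are 4 windows, which together span 1.18 Mb of hg19. They held 26 of the 36797 peaks in the list, or 0.0707%. The members were chosen by position and not by score, but with earlier results of these data known. The peaks come from chromatin immunoprecipitation and sequencing (ChIP-seq) with an antibody against GATA2 in LNCaP, a long-used line of human prostate cancer cells that responds to androgens. Per the labels, both ChIP samples are replicates of 1 group, at passages 32 to 34, grown in RPMI with 10% FBS and moved to 5% charcoal-treated FBS, which is depleted of steroids, 3 days before the assay. Nothing in the labels used here gives an input, an untreated group or a second cell type, and LNCaP stands as 1 cancer line and not as normal prostate epithelium. For the whole series there was 1 peak list with no value per replicate, so no value below has a replicate error and no p-value was computed. Read depth behind each peak is unknown, and the absence of a peak does not show the absence of GATA2.

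GATA2 is a zinc-finger transcription factor that recognises DNA containing GATA. In prostate cancer cells it is known as a partner of the androgen receptor at enhancers. Keratin 8 (KRT8) and keratin 18 (KRT18) pair to form the intermediate filaments of simple epithelia and are standard markers of luminal prostate cells. E-cadherin (CDH1) is the calcium-dependent adhesion protein of adherens junctions, and EPCAM encodes a surface glycoprotein of epithelial cells. GRHL2 is a transcription factor of the grainyhead family that maintains epithelial gene expression, CDH1 included. Peaks of a ChIP-seq list mark places of enrichment and do not show which gene, if any, is regulated from them.

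The gene bodies are known here only from the windows, which give their ends rounded to 0.01 Mb, so distances to the marks at these ends are good to several kb at best. Sequences of the peaks themselves were not used here, because no hg19 sequence was at hand. Among the 5 genes, 1 has an entry in the RefSeq promoter table used, KRT8. Its entry is shown because no other member had one, and not because of its peaks. Whether the annotated start of this entry is the main start of KRT8 was not examined. The table is on GRCh38.p14, chr12:52926420-52926719, minus strand, and whether an hg19 peak covers this promoter was not tested. Capitals mark the 50 bases from the annotated start onward, after 250 bases before it.
KRT8 promoter: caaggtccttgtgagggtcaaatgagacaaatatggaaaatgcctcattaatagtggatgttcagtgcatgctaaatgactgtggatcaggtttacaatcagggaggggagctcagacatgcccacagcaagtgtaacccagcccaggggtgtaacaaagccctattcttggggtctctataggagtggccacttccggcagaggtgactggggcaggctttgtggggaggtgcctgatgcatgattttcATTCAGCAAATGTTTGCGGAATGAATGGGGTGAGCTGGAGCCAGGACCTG

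On both strands, these 300 bases held 0 matches to GATA, a string present in 49.7% of the 35116 promoters of the table. The 4 longer spellings, GATA with A or T before it and A or G after it, overlap this string and therefore had 0 matches too. At least 1 of these 4 spellings occurred in 25.0% of all promoters. The grainyhead string AACCGGTT, present in 0.134% of promoters, was not found. Likewise absent were the E-box CACCTG (20.6% of promoters), the forkhead string TGTTTAC (3.42%) and the palindromic steroid receptor response element (0.00285%). These letters are absent from this window only, and nothing follows from that about binding. KRT18, CDH1, EPCAM and GRHL2 were not in the table.

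GATA2 peaks were unevenly shared among the 4 windows. The GRHL2 window held 15 of the 26 member peaks, or 57.7% of them, on 33.1% of the member length. That window had 38.5 peaks per Mb, with an exact Poisson 95% interval of 21.5 to 63.4, against 12.8 per Mb in the rest of the list. The other 3 windows together had 13.9 peaks per Mb (95% interval 6.95 to 24.9), and this interval contains the density of the rest of the list. Intervals here cover counting over peaks only, and peaks are not replicates. They are too narrow where peaks cluster, so each window was also set beside all non-overlapping tiles of its own length on the usable chromosome length.

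**Figure D1:**
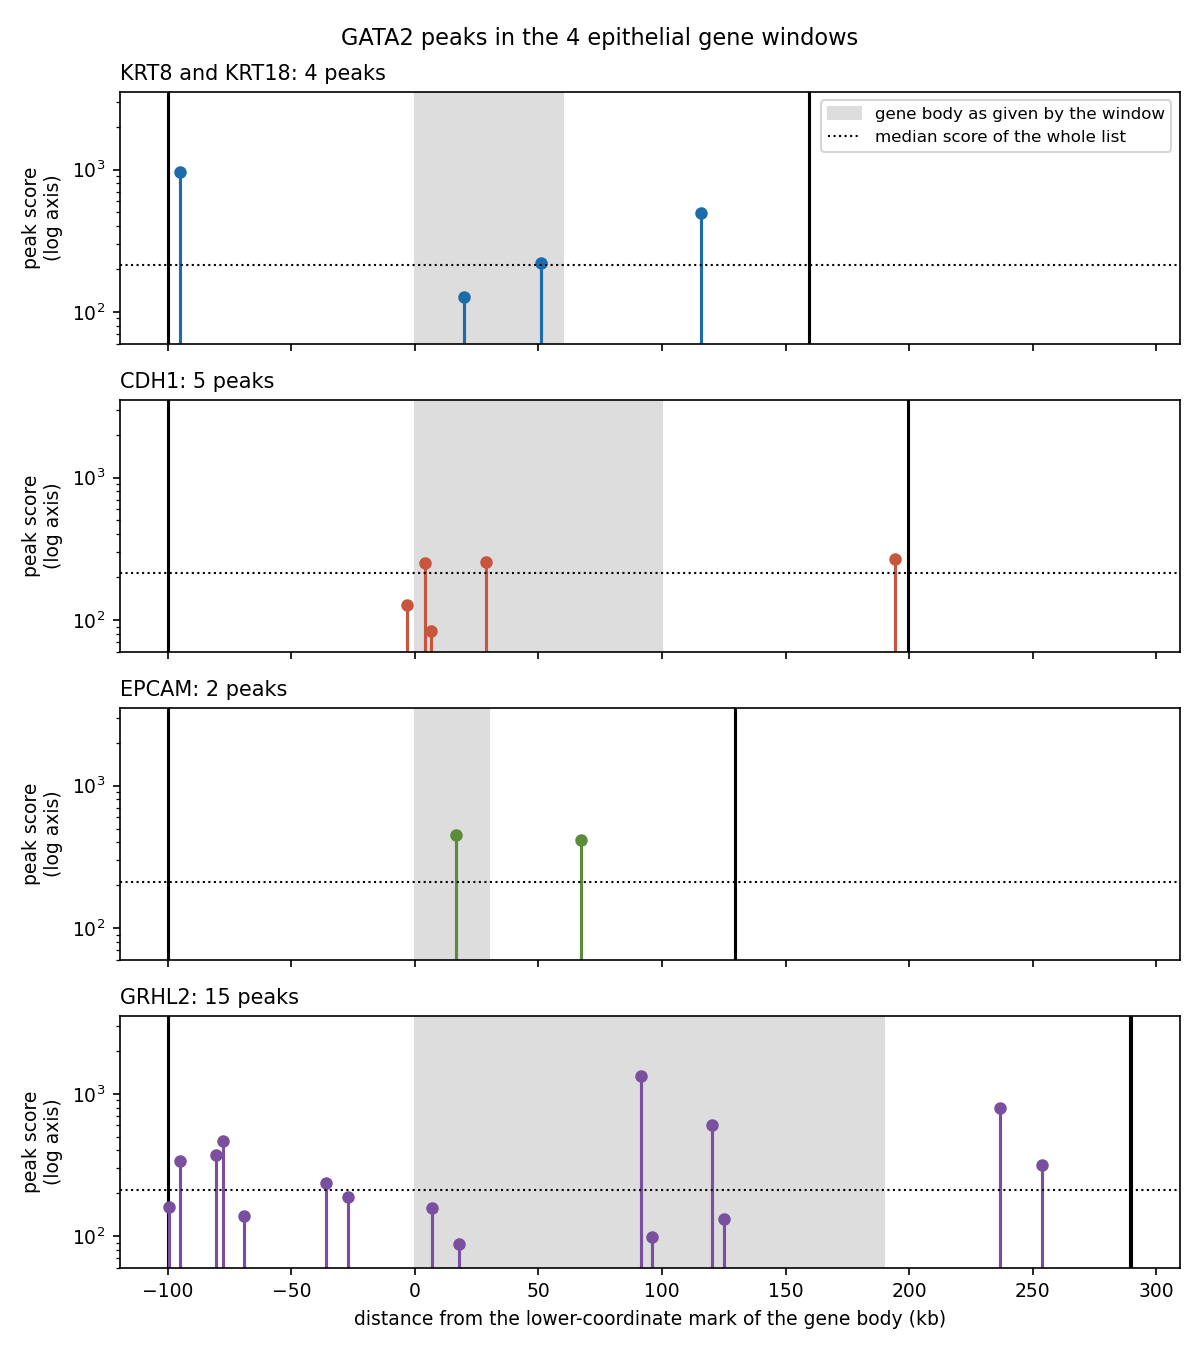
Score of each GATA2 peak (log axis) against its distance in kb from the lower-coordinate mark of the gene body, 1 panel per window; grey marks the gene body, black lines the window ends, and the dotted line the list median of 212.2. The 15 peaks of the GRHL2 window fall into groups before, inside and after the body, 3 of the 5 CDH1 peaks lie close to the lower mark, and EPCAM has 2 peaks.

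GRHL2 (chromosome 8, 102.40 to 102.79 Mb), the densest of the 4 windows, stood in the upper tail of peak number. Tiles of 0.39 Mb held a median of 4 peaks, and the middle 50% of tiles held 2 to 7. At least 15 peaks were found in 1.38% of the 7333 such tiles. The adjoining stretches of equal length held 5 peaks before the window and 6 after it, and the rest of chromosome 8 averaged 13.2 peaks per Mb. The surplus in the window was not limited to low-scoring peaks. Among the better-scoring 50% of the list the window held 8 peaks, a number reached by 2.39% of tiles. In the best-scoring 10% of the list it held 2 peaks, which 10.4% of tiles reached.

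**Figure D2:**
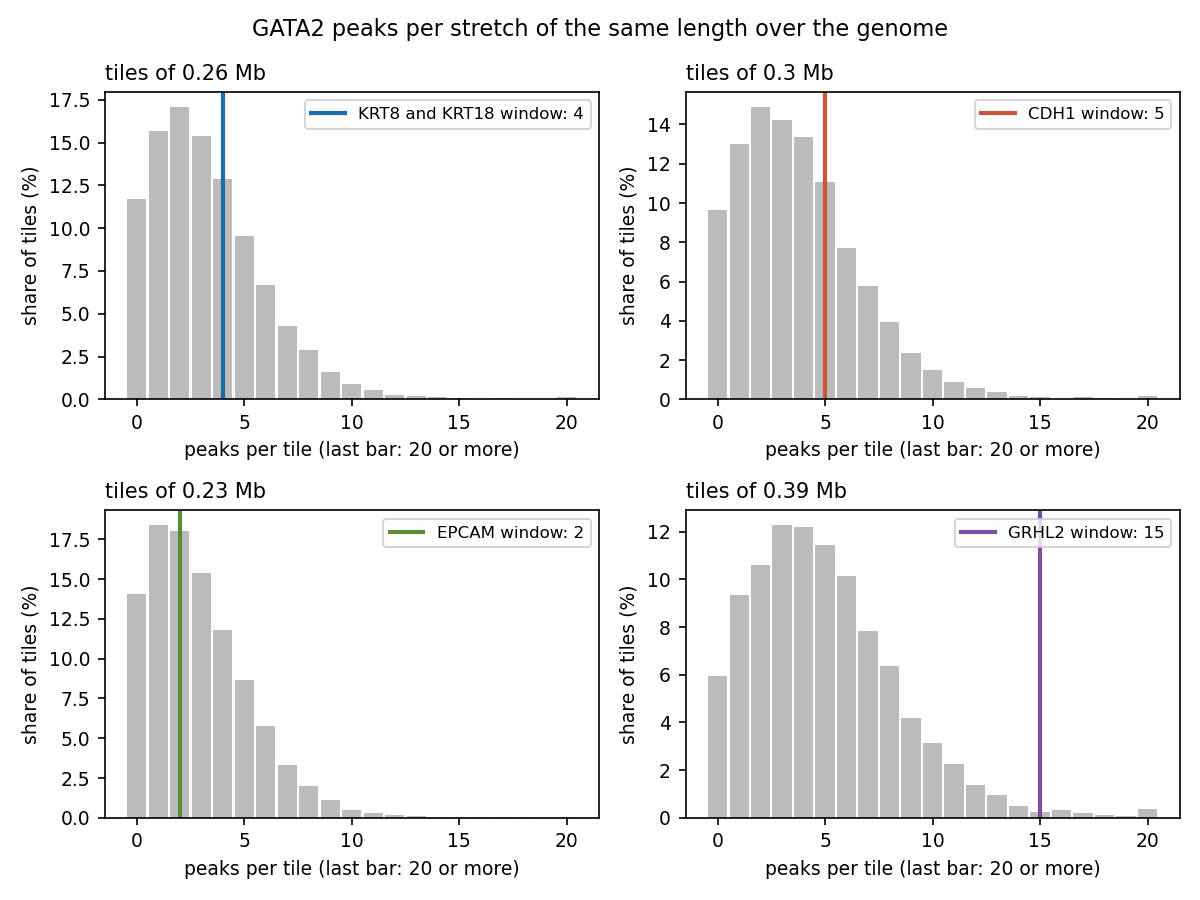
Share of tiles (%) against the number of GATA2 peaks in a tile, for all non-overlapping tiles of the length of each window; the coloured line is the window itself. The GRHL2 window, with 15 peaks, lies in the right tail, and the KRT8 and KRT18, CDH1 and EPCAM windows, with 4, 5 and 2 peaks, lie in the bulk of their tiles.

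The highest-scoring member peak lay near the middle of the GRHL2 body. It spans chr8:102591325-102591946, scored 1336 and is 622 bp wide. Its centre lies 91.6 kb after the lower mark of the body, which is the start side of this plus-strand gene, and 98.4 kb before the upper mark. In the whole list 381 peaks scored higher, and on chromosome 8 it ranked 16. A peak scoring at least as high occurred in 4.95% of tiles of 0.39 Mb. The score, which the authors deposited with each peak, has no stated scale and serves here to order and select peaks of this list.

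Inside the GRHL2 body there were 6 peaks. The second in score, chr8:102619884-102620431, scored 607.2 and is 548 bp wide. Both this peak and the highest-scoring one had a lower-scoring companion within 10 kb. The companion of the highest-scoring peak (chr8:102595646-102596001) scored 99.02 at a centre distance of 4.19 kb, and that of the second (chr8:102624783-102625083) scored 133.1 at 4.78 kb. The companions are 356 bp and 301 bp wide, against medians of 183 bp and 222 bp for peaks elsewhere in the list ranked within 1 percentile of them by score. The remaining 2 peaks of the body lay towards its start. The peak at chr8:102506934-102507233, centred 7.08 kb after the lower mark, scored 159.1. At chr8:102517825-102518101 the score was 88.31, and 5.62% of the list scored lower. Between this peak and the highest-scoring one lay 73.2 kb without a peak.

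Before the GRHL2 body, 7 peaks fell into the flank of 0.1 Mb, a count that 0.593% of the 28682 tiles of that length reached. This flank was picked out after the counts were seen, as the densest of the 8, and the other flanks held 0 to 2 peaks. Its peaks lay in 2 groups. The first, of 5 peaks, opened with chr8:102400529-102400844, which scored 160.1, and ended with chr8:102430702-102430895, which scored 139.6. Between them chr8:102404886-102405220 scored 335.8, chr8:102419384-102419723 scored 372.5 and chr8:102422127-102422506 scored 468.3. All 3 inner peaks scored higher than both outer ones. The second group was a pair 9.02 kb apart, chr8:102463964-102464233 with a score of 236.4 and chr8:102473000-102473243 with a score of 187.3. LOC124901993 precedes GRHL2 among protein-coding genes in the RefSeq order, and the 7 peaks of this flank were not assigned to either gene.

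After the GRHL2 body there were 2 peaks, with 111.6 kb without a peak between them and the last peak inside the body. The nearer one, chr8:102736705-102737103, scored 800.6, was 399 bp wide and was the second highest of the window. Its centre lay 46.9 kb after the upper mark. The farther one, chr8:102753413-102753725, scored 313.8. NCALD is the next protein-coding gene on this side in the RefSeq order, and these peaks were not assigned to either gene.

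The CDH1 window (chromosome 16, 68.67 to 68.97 Mb) held 5 GATA2 peaks, or 16.7 per Mb (95% interval 5.41 to 38.9). This number was within the common range, since 34.9% of tiles of 0.3 Mb held at least 5. CDH1 is a plus-strand gene, and 3 of its peaks lay within 7 kb of the lower mark of the body at 68.77 Mb. The peak at chr16:68766663-68766925 scored 127.1 and was centred 3.21 kb before that mark. Those at chr16:68773764-68774081 and chr16:68776382-68776487 were centred 3.92 kb and 6.43 kb after it, and scored 249.9 and 83.14. With a mark rounded to 0.01 Mb, which of the 3 is closest to the start of transcription cannot be told. The peak scoring 83.14, with a width of 106 bp, had the lowest score and the smallest width of all 26 members.

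Farther into the CDH1 gene, chr16:68798845-68799119 scored 253.6 and was centred 29.0 kb after the lower mark. No peak followed over the next 165.1 kb, which takes in the larger part of the gene body. The last peak of the window, chr16:68964264-68964552, scored 268.3, the highest of the 5, and lay 94.4 kb beyond the upper mark. RefSeq places TANGO6 next to CDH1 on that side, and CDH3, which encodes P-cadherin, next to it on the other. None of the 5 peaks reached the upper quartile of the list, 396.8, which 25.0% of all peaks reach by construction. A peak at least as high as the best of this window was found in 69.8% of tiles of 0.3 Mb.

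The KRT8 and KRT18 window (chromosome 12, 53.19 to 53.45 Mb) held 4 GATA2 peaks, or 15.4 per Mb (95% interval 4.19 to 39.4). In tiles of 0.26 Mb, 40.1% held at least 4. The 2 peaks inside the combined body scored 127.9 (chr12:53309674-53309902) and 221.4 (chr12:53340711-53340978). They lay 31.1 kb apart, and the higher of them was centred 9.16 kb before the upper mark, the side on which RefSeq lists KRT18. Its score was close to the list median, with 51.9% of all peaks below it. Both peaks outside the body scored higher than these. At chr12:53194600-53194964, 365 bp wide, the score was 966.1, with 95.8% of the list below it. This peak is centred 4.78 kb inside the window's lower end and 95.2 kb before the body. KRT78 adjoins KRT8 on that side in the RefSeq order. Which genes lie between KRT8 and this peak was not determined, since no hg19 annotation was used. The peak at chr12:53405674-53406015 scored 495.1 and lay 55.8 kb beyond the body, on the side of EIF4B. A score of at least 966.1 occurred in 12.6% of tiles.

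The EPCAM window (chromosome 2, 47.49 to 47.72 Mb) held 2 GATA2 peaks, or 8.70 per Mb (95% interval 1.05 to 31.4), and 67.5% of tiles of 0.23 Mb held at least 2. Both were of similar and fairly high score. The peak inside the body, chr2:47606620-47606945, scored 450.4 and was 326 bp wide. The other, chr2:47656856-47657206, scored 415.7, was 351 bp wide and lay 37.0 kb beyond the upper mark. Around them the list was empty over long distances. The nearest peak before the window's first peak ended 432.0 kb away, and the next after its last peak began 403.3 kb away. The adjoining stretches of equal length therefore held 0 peaks on each side. A peak scoring at least 450.4 was found in 42.4% of tiles.

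**Figure D3:**
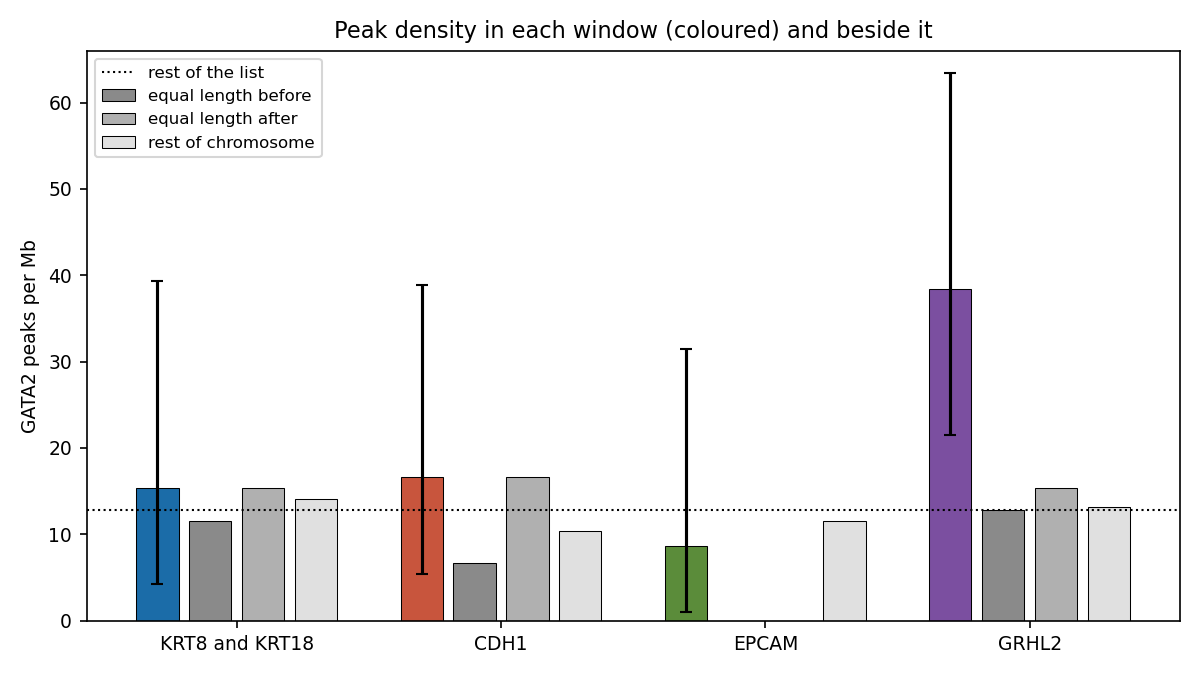
GATA2 peaks per Mb in each window (coloured, with the exact Poisson 95% interval as a bar), in the stretches of equal length before and after it, and in the rest of its chromosome; the dotted line is the rest of the list at 12.8 per Mb. The lower end of the interval for GRHL2, 21.5, lies above its neighbouring stretches, the rest of chromosome 8 and the dotted line, and EPCAM has empty stretches, drawn as bars of no height, on both sides.

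Taken by position within the windows, the gene bodies had densities that came out close in value, each from few peaks and a rounded length. They carried 33.3 peaks per Mb at KRT8 and KRT18, 30.0 at CDH1, 33.3 at EPCAM and 31.6 at GRHL2, from 2, 3, 1 and 6 peaks. Over the 4 bodies this made 12 peaks on 0.38 Mb, or 31.6 per Mb (95% interval 16.3 to 55.2). Relative to the rest of the list the ratio was 2.46. The single bodies, in the order given, had 95% intervals of 4.04 to 120, 6.19 to 87.7, 0.844 to 186 and 11.6 to 68.7. Likeness between the bodies is therefore not shown. Each count alone was not rare. As many peaks were found in 18.8% of tiles as long as the KRT8 and KRT18 body, in 16.5% for CDH1, in 29.1% for EPCAM and in 8.38% for GRHL2. The flanks were unlike each other: 9 peaks lay in the 0.2 Mb around GRHL2, and 5 lay in the 0.6 Mb around the other 3 bodies, or 8.33 per Mb (95% interval 2.71 to 19.4). How often GATA2 peaks fall in gene bodies at large was not analysed here, since no hg19 annotation was used.

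In score the member peaks were not set apart from the rest of the list at this number. Their median was 251.8 (exact 95% interval from order statistics 159.1 to 415.7), against 212.1 (210.2 to 215.0) for the rest. At or above the upper quartile there were 8 of 26, or 30.8% (Wilson 95% interval 16.5% to 49.99%), against 25.0% of all peaks. Of these 8, 4 were in the GRHL2 window, 2 in the KRT8 and KRT18 window and 2 in the EPCAM window. The best-scoring 10% of the list, 10.0% of peaks, took in 3 members: the peak in the middle of GRHL2, the distal peak of the keratin window and the first peak after GRHL2. Scores under 100 were found for 3 members, or 11.5%, against 11.9% of all peaks. The 12 peaks in gene bodies had a median score of 190.3, and the 9 in the flanks before and 5 in the flanks after had medians of 236.4 and 415.7.

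**Figure D4:**
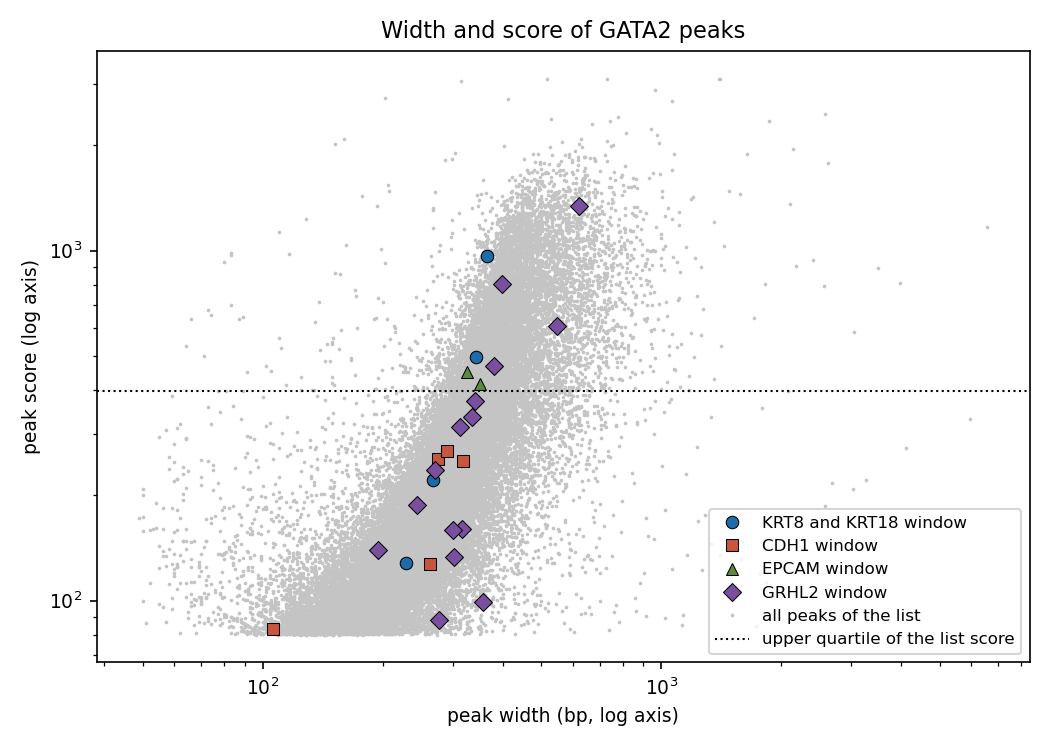
Width (bp, log axis) and score (log axis) of the 26 member peaks, by window, over all peaks of the list in grey; the dotted line is the upper quartile of the list score, 396.8. The members lie within the cloud of the list, and the narrowest of them, 106 bp, is also the lowest-scoring.

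Widths of the members ran from 106 to 622 bp with a median of 314.5 bp (95% interval 275 to 342), against 293 bp (291 to 294) in the rest of the list. Set beside other peaks ranked within 1 percentile by score, 11 members were wider and 15 narrower than the median of those peaks, and the median ratio was 0.97. The largest ratio, 1.95, belonged to the companion peak of 356 bp inside GRHL2.

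Close neighbours were frequent at GRHL2. Across the list 33.2% of peaks have another centre within 10 kb, and 14 of the 26 members did, or 53.8% (Wilson 95% interval 35.5% to 71.2%). In the GRHL2 window it was 11 of 15, in the CDH1 window 3 of 5, and in the KRT8 and KRT18 and the EPCAM windows 0 of 4 and 0 of 2. Outside GRHL2 this made 3 of 11, or 27.3%. The GRHL2 peaks formed 6 neighbouring pairs at such distances. At CDH1 there were 2 such pairs, which share the peak scoring 249.9. A window with more peaks per Mb has closer neighbours by that alone, so this share is not a measure apart from density. With the list reduced to its better-scoring 50%, 2 of 16 members had such a neighbour, or 12.5%, against 17.2% of all peaks kept. In the best-scoring 10% it was 0 of 3 members, against 4.54% of all peaks kept.

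The window ends decide a few members. The first GRHL2 peak is centred 0.69 kb inside the lower end, and the nearest peak outside it, chr8:102369949-102370181 with a score of 125.5, lies 29.9 kb beyond. On the other side the nearest peak outside is 65.4 kb away and scored 124.9. For KRT8 and KRT18 the first peak lies 4.78 kb inside and the nearest ones outside are 145.3 and 124.3 kb away. For CDH1 the last peak lies 5.59 kb inside, and the nearest ones outside are 218.0 and 234.1 kb away. For EPCAM no peak lies within 60 kb of either end, inside or out.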

How the data were processed

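The deposited file was 1 list of GATA2 ChIP-seq peaks on hg19. The submitters' processing notes name Bowtie and hg19, and the names of the peaks in the deposited file point to MACS as the caller. Versions, any control library, duplicate handling and pooling of the 2 replicates: not given in the sources used here. The deposited score, the authors' value per peak from 80.01 to 3100, has no stated unit and was used to rank, filter and describe peaks within the list. Depth is unknown.

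Starts were converted to 1-based coordinates and centres taken as midpoints. Usable length ran from the first to the last peak of each chromosome, less peak-free stretches over 2.5 Mb, in all 2870 Mb. It was cut into non-overlapping tiles of each window's length. Ties to a threshold count as reaching it. Counting was checked on 1 simulated list with peaks placed uniformly at random, which does not copy the clustering of the real peaks. All members and every member peak were named, and some adjacent protein-coding genes from the RefSeq order (GRCh38.p14). A longer list of epithelial and mesenchymal genes, and motifs within peaks, were not run, since no hg19 annotation or sequence was used. Members and lists were chosen with earlier results of these data known. Comparisons of bodies, flanks, higher-scoring peaks and best scores with tiles, and of widths at similar rank, were added after values had been seen. No test was made, as no value belongs to a replicate. Alternatives covered score, merging, window size, membership, loci and the length of the rest. Python 3.11.15, numpy 2.4.6, pandas 2.3.3, scipy 1.17.1 and matplotlib 3.10.9 were used.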

Additional observations from a re-analysis of the deposited data

How the results depend on the processing

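The density in the 4 windows, 1.72 times that of the rest of the list, was 1.09 times without the GRHL2 window. It also depended on window size: 1.14 times with flanks of 0.2 Mb (29 peaks) and 2.46 times without flanks. Under the other alternatives it ranged from 1.67 to 2.12 times. The 26 member peaks became 11 without the GRHL2 window, 17 with flanks of 0.05 Mb, 12 without flanks, 16 among the better-scoring 50% and 3 among the best-scoring 10%. By window, GRHL2 had 15 peaks, 9 with flanks of 0.05 Mb, 6 without flanks, 8 in the better-scoring 50% and 2 in the best-scoring 10%. CDH1 had 5, then 3 without flanks, 3 in the better-scoring 50% and 0 in the best-scoring 10%. KRT8 and KRT18 had 4, then 2 with flanks of 0.05 Mb, 2 without flanks and 1 in the best-scoring 10%. EPCAM had 2, then 1 without flanks and 0 in the best-scoring 10%. These losses follow from smaller windows or fewer peaks. The median score, 251.8, was 966.1 for the 3 members in the best-scoring 10%. That rise is set by the cut itself, since every peak kept there scores at least 686.9. The share with a neighbour within 10 kb, 53.8%, was 27.3% without the GRHL2 window. It was 12.5% in the better-scoring 50% and 0% in the best-scoring 10%, where it was 17.2% and 4.54% over all peaks kept, since a thinner list has fewer close neighbours. For 66 values, which include the density ratios of all alternatives but the 1.09, the change was less than 1.5 times (counts) or did not leave the 95% interval. Starting the tiles at another point, an alternative chosen after seeing the data, gave 1.26% of tiles with as many peaks as GRHL2. No replicate could be left out, since no value belongs to one. No paired analysis was possible because all samples are of 1 group and no column has a replicate number.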
